A study of Danio rerio with 6 samples.

Results

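The genes described here encode splicing factors and heterogeneous nuclear ribonucleoproteins (hnRNPs), measured in whole zebrafish embryos at 5 dpf on 6 Affymetrix whole-transcript arrays. They were chosen by name, with earlier results of these data known, as rows of the array table with exactly 1 gene symbol. That symbol had to begin with *srsf* and a digit, *snrp*, *sf3a* or *sf3b*, *hnrnp*, *prpf* and a digit, or *u2af*. This gave 78 rows for 71 genes, out of 19260 genes with 1 symbol, and each gene was represented by its row with the highest mean. The 71 comprised 17 SR proteins (*srsf*), 20 hnRNPs, 11 small nuclear ribonucleoprotein (snRNP) genes named *snrp*, 8 subunits of the SF3a and SF3b complexes, 3 U2AF genes and 12 *prpf* genes.

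The study asked whether loss of Tdp1, the enzyme that frees DNA ends from trapped topoisomerase 1 (Top1), is compensated by changes in transcription. The arrays held RNA of 3 samples of *tdp1WT* and 3 of *tdp1-/-* embryos. Both genotypes were kept in 500 nM camptothecin (CPT), the Top1 poison, for 16 hours, so every value below is from CPT-treated embryos and no untreated group is compared. The mutants carry small frameshift deletions made with CRISPR-Cas9 in the first coding exon of *tdp1*, SH475 on both copies or SH475 with SH476, on mixed London wild-type and nacre stock. Which of the 2 allele pairs, and how many embryos, each array held is not given in the sources used here. Each value is a log2 value from robust multi-array averaging (RMA), and each difference is *tdp1-/-* minus *tdp1WT* on that scale, tested by limma over all 75212 rows. Calls of higher or lower required that limma's p before adjustment was under 0.05 and that the fold change passed 1.2, the threshold of the study. With 3 arrays in each genotype the smallest exact permutation p is 0.1. These permutations split the 6 arrays freely, without regard to replicate number, and limma ignored that number too unless a block is named. In RNA of whole embryos, fewer cells of a type and less RNA per cell cannot be told apart.

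Splicing removes introns from pre-mRNA in the spliceosome, a machine of small nuclear RNAs and proteins that is assembled anew on each intron. The U1 snRNP marks the 5′ splice site, U2AF and the U2 snRNP with SF3a and SF3b mark the branch point and 3′ splice site, and the U4/U6.U5 tri-snRNP, which holds several Prpf proteins, then forms the catalytic centre. SR proteins mostly promote the use of exons and hnRNPs often repress it, and many genes of both families tune their own mRNA through exons that lead to its decay. In human cells TOP1 also phosphorylates SR proteins, SRSF1 among them, and CPT blocks this activity.

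No gene of these families passed the thresholds between the genotypes. None of the 71 was called lower and none higher by limma, and none was under an unadjusted p of 0.05 (1.89% of genes with 1 symbol were), the smallest being 0.0653. Over all 19260 genes with 1 symbol 1.04% were called lower and 0.852% higher, and over all rows 1.29% and 2.28%. The split over all rows depended on the scaling, with 970 rows lower and 1718 higher as deposited and 1548 and 1566 after a further quantile normalization. The adjusted p from limma was 1 for every member after rounding. Its lowest value was 0.913 over all genes with 1 symbol and 0.061 over all rows. The median log2 difference was 0.006 over the 71 genes and -0.005 over all genes with 1 symbol. Of the members, 34 had a negative difference (47.9%), beside 51.4% of all genes with 1 symbol and 43.4% of all rows.

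The size of the differences was small as well. The median size was 0.066 on the log2 scale over the members, and 0.095 over the 14072 genes with 1 symbol whose rows were at least as bright as the dimmest member. Only 2 members, *srsf1a* and *srsf1b*, differed by more than 1.2-fold in their means, which is 2.82% of the list, where 9.61% of the genes as bright did so. Among 190 other genes listed for splicing and related steps such as mRNA export, described below, 5.26% did so, and the median size was 0.080. They are called other splicing genes here for short. Beyond the lower bound, the genes as bright were not matched to the members in brightness. The plot of the sizes of the differences shows the curve of the members above that of the other genes over most of its range. Whether the list differs from other genes in this respect was not tested.

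**Figure D1:**
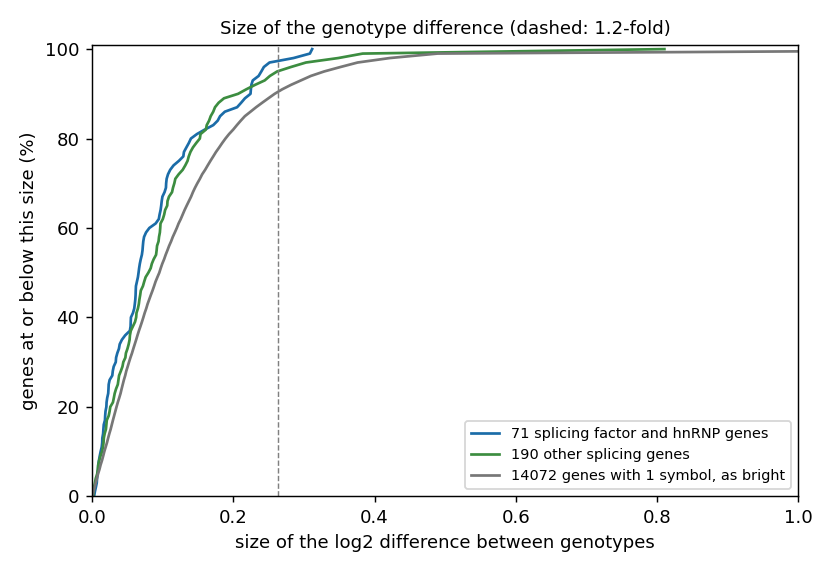
Share of genes (percent, vertical axis) whose log2 difference between the genotypes has at most the size on the horizontal axis, for the 71 splicing factor and hnRNP genes, 190 other splicing genes (with related steps such as mRNA export) and 14072 genes with 1 symbol at least as bright as the dimmest member. The median size was 0.066 for the members and 0.095 for the genes as bright, and the dashed line marks 1.2-fold.

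The confidence intervals give the precision of each difference on the array scale, from the spread between arrays only. They do not show how closely array values follow the amount of mRNA. In the paper, *sprtn* and *neil1* were higher in *tdp1-/-* on these arrays but lower by quantitative PCR, significantly so only for *neil1*. Whether the 71 genes differ by another method was not tested. The median half-width of the 95% interval was 0.36 on the log2 scale over the members. For 56 of the 71 genes the whole interval lay inside a 1.5-fold change in either direction, and for the other 15, among them *srsf1a*, *srsf1b*, *hnrnpul1l*, *prpf38a*, *snrpd3* and *snrpg*, a change of that size was not excluded by the interval. All 71 rows were brighter than the median row of the table. Their mean log2 values ran from 5.20 for *srsf7b* to 10.49 for *hnrnpa0l*, values that depend on the probes of each row and give no order of abundance.

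**Figure D2:**
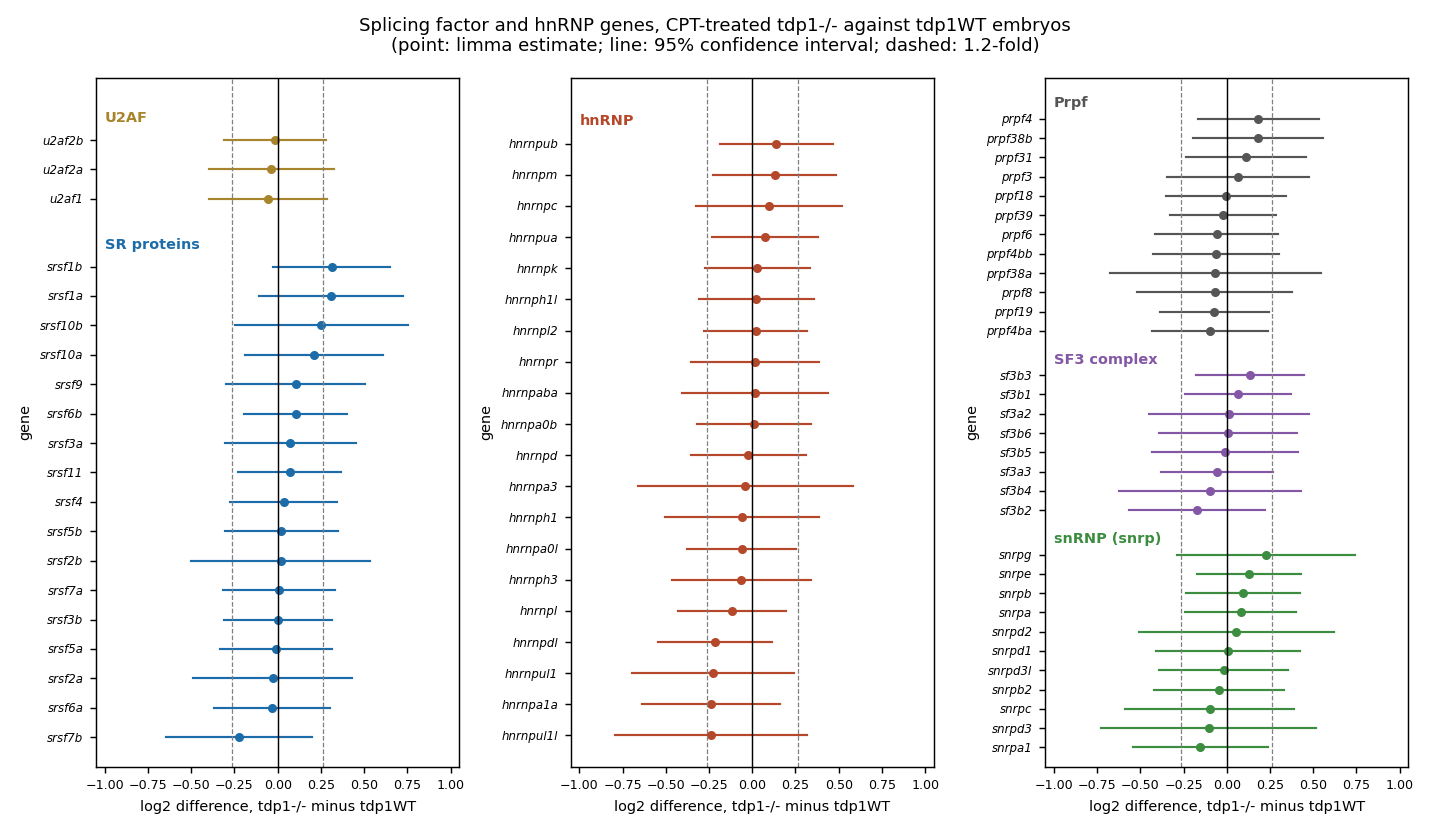
Log2 difference, *tdp1-/-* minus *tdp1WT*, of each of the 71 genes with its 95% confidence interval from limma, grouped by class, with dashed lines at 1.2-fold in either direction. All 71 intervals include 0, and only *srsf1a* and *srsf1b* have a mean difference beyond a dashed line.

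Among the SR proteins, which bind exonic enhancers and recruit U1 and U2AF, the pair of *srsf1* genes stood out most. Srsf1 is the founding member of the family, and zebrafish carry its gene in 2 copies. On the arrays the *srsf1b* row measured 8.15, 8.37 and 8.08 in *tdp1WT* replicates 1, 2 and 3 and 8.44, 8.58 and 8.52 in *tdp1-/-* replicates 1, 2 and 3 (log2 values). Every *tdp1-/-* array was above every *tdp1WT* array, and the genotypes did not overlap. The means were 8.20 ± 0.15 and 8.51 ± 0.07 (SD, n = 3 arrays each), a log2 difference of 0.31 (95% confidence interval from -0.03 to 0.65), or 1.24-fold (limma adjusted p = 1, two-sided exact permutation p = 0.1). With the replicate number as a block, limma called *srsf1b* higher (95% confidence interval from 0.004 to 0.62, unadjusted p = 0.048, adjusted p = 0.773), the only member called, where the same fit called 1.55% of genes with 1 symbol higher and 2.49% lower. It was called without the block when *tdp1WT* replicate 2 was left out, with a log2 difference of 0.40.

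The *srsf1a* row measured 7.82, 8.0 and 7.48 in *tdp1WT* and 7.91, 8.16 and 8.16 in *tdp1-/-* replicates 1, 2 and 3. Here the genotypes overlapped, and *tdp1WT* replicate 3 was the lowest array. The log2 difference was 0.31 (95% confidence interval from -0.11 to 0.72, two-sided exact permutation p = 0.2), and in the same-numbered pairs it was 0.09, 0.16 and 0.68. A dimmer row of *srsf1a* gave 0.34. Whether the rows of *srsf1a* and *srsf1b* share probe sequence was not analysed here.

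The other SR protein genes lay closer to 0. For *srsf6b* the log2 values were 8.02, 7.95 and 8.01 in *tdp1WT* and 8.15, 8.07 and 8.09 in *tdp1-/-* replicates 1, 2 and 3. The genotypes did not overlap, but the difference was only 0.10, or 1.08-fold (95% confidence interval from -0.19 to 0.40, two-sided exact permutation p = 0.1). The *srsf10* pair, whose protein in mammals turns into a general repressor of splicing when it loses its phosphates, gave 0.21 for *srsf10a* and 0.25 for *srsf10b*, with exact permutation p of 0.3 and 0.4. The largest negative value of the class belonged to *srsf7b*, the dimmest row, with 5.38, 5.31 and 5.26 in *tdp1WT* and 5.41, 5.04 and 4.82 in *tdp1-/-* replicates 1, 2 and 3. Its log2 difference was -0.22 (two-sided exact permutation p = 0.4), and it was called lower only without *tdp1-/-* replicate 1, the array with its highest value, at -0.38. The brightest row of the class, *srsf2a*, gave -0.03. In all, 13 of the 17 SR proteins had a positive difference, with a class median of 0.034 and a range from -0.22 to 0.31. Below 0 were 23.5% of the class, beside 51.4% of all genes with 1 symbol and 43.4% of all rows. The median over all rows was 0.029. The class median was 0.0125 with each array centred on its median and 0.065 with array weights. Centring lowered every difference by the same amount, that of *srsf1b* from 0.3116 to 0.2899. As deposited, *srsf3b*, *srsf7a*, *srsf2b* and *srsf5b* were positive by less than that shift (0.0043, 0.0083, 0.0184 and 0.0205). The share of the class below 0 therefore depends on the scaling.

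**Figure D3:**
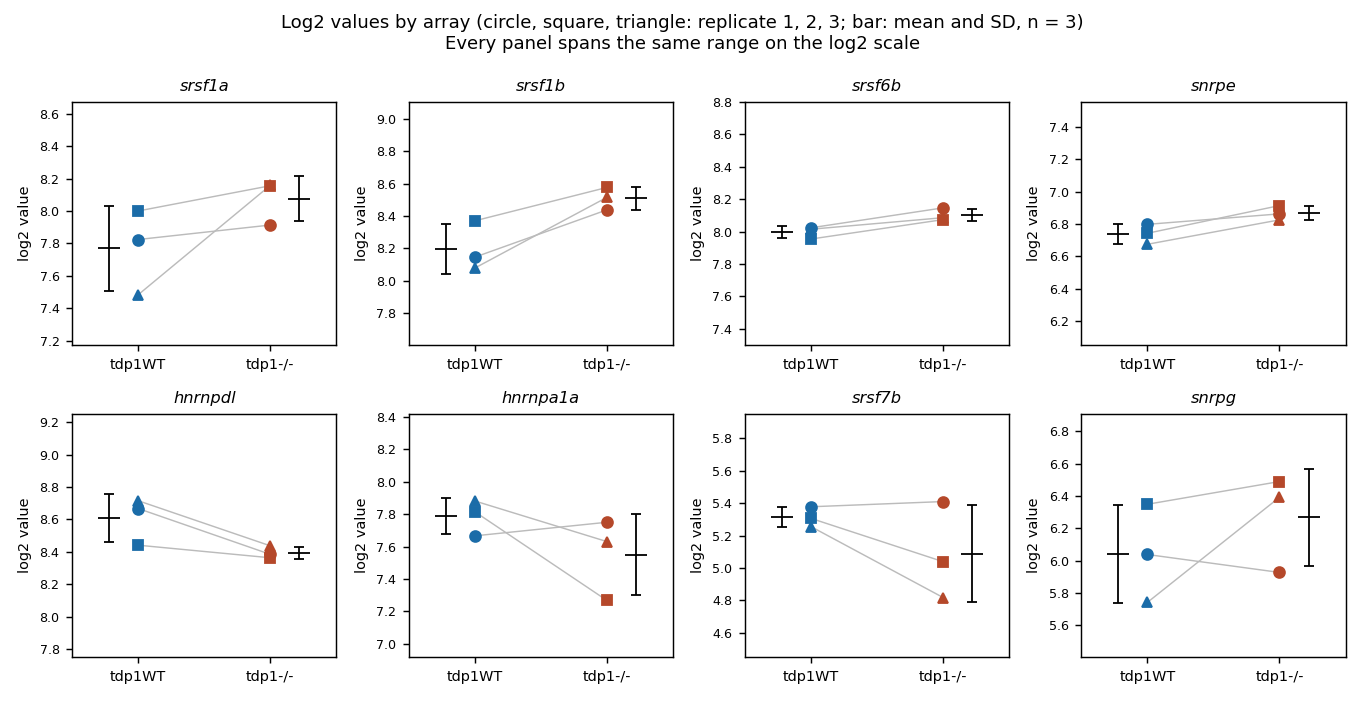
Log2 values of 8 members on each array, with circles, squares and triangles for replicates 1, 2 and 3, grey lines joining same-numbered arrays, and black bars for the mean and SD of 3 arrays. In *srsf1b*, *srsf6b*, *snrpe* and *hnrnpdl* the arrays of the genotypes do not overlap, and in the other 4 they do.

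The hnRNPs, which coat nascent transcripts and act in splicing, export and mRNA stability, were split evenly, with 10 of 20 below 0 and a median log2 difference of -0.006. For *hnrnpdl*, a relative of the AU-rich element binding protein Hnrnpd, the log2 values were 8.67, 8.44 and 8.72 in *tdp1WT* and 8.38, 8.36 and 8.44 in *tdp1-/-* replicates 1, 2 and 3. Every *tdp1-/-* array was below every *tdp1WT* array. The log2 difference was -0.21 (95% confidence interval from -0.54 to 0.12), with an adjusted p of 1 from limma and a two-sided exact permutation p of 0.1. For *hnrnpa1a*, a repressor of exon use in its mammalian counterpart, the values were 7.67, 7.82 and 7.88 in *tdp1WT* and 7.75, 7.27 and 7.63 in *tdp1-/-* replicates 1, 2 and 3. These overlapped, and the difference was -0.24, with -0.55 in the pair of replicate 2 (two-sided exact permutation p = 0.2).

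The hnRNP U-like proteins are of interest in a study of DNA breaks, because human HNRNPUL1 acts in the resection of broken ends beside its role with RNA. The row of *hnrnpul1* measured 8.15, 7.54 and 8.07 in *tdp1WT* and 7.77, 7.50 and 7.81 in *tdp1-/-* replicates 1, 2 and 3, and that of *hnrnpul1l* measured 8.58, 7.96 and 8.33 in *tdp1WT* and 8.32, 7.64 and 8.18 in *tdp1-/-* replicates 1, 2 and 3. In both genes the *tdp1-/-* array was the lower in all 3 same-numbered pairs, the genotypes overlapped, and replicate 2 was the lowest array of each genotype. The log2 differences were -0.23 and -0.24 (two-sided exact permutation p = 0.3 and 0.4), and neither was called with the replicate block, in which *hnrnpul1l* had a 95% confidence interval from -0.54 to 0.06. The scaffold genes *hnrnpua* and *hnrnpub* gave 0.07 and 0.14. *hnrnpua* was the only member on chromosome 17, which carries *tdp1*. The bright row of *hnrnpa0l* gave -0.06, *hnrnpaba* 0.02, *hnrnpk* 0.03, *hnrnpl* -0.12 and *hnrnpc* 0.10. The dimmest row of the class, *hnrnpa3*, was the least precise at -0.04 (95% confidence interval from -0.66 to 0.58).

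Of the *snrp* genes, *snrpb*, *snrpd1*, *snrpd2*, *snrpd3*, *snrpe* and *snrpg* encode proteins of the Sm ring of spliceosomal snRNPs such as U1 and U2. The genes *snrpa* and *snrpc* belong to U1, and *snrpa1* and *snrpb2* to U2. For *snrpe* the log2 values were 6.80, 6.74 and 6.68 in *tdp1WT* and 6.86, 6.91 and 6.83 in *tdp1-/-* replicates 1, 2 and 3. The *tdp1-/-* arrays were all above the *tdp1WT* arrays, by a mean of 0.13 on the log2 scale, or 1.09-fold (95% confidence interval from -0.17 to 0.43, two-sided exact permutation p = 0.1). The widest difference of the class was 0.23 for *snrpg* (two-sided exact permutation p = 0.4), whose arrays overlapped. That value was 0.076 without *tdp1WT* replicate 3 and 0.40 without *tdp1-/-* replicate 1. The other Sm genes gave -0.10 (*snrpd3*), 0.006 (*snrpd1*), 0.05 (*snrpd2*) and 0.09 (*snrpb*), and *snrpd3l*, named after *snrpd3*, gave -0.02. The U1 gene *snrpc* gave -0.10 and *snrpa* 0.08, and the U2 genes *snrpa1* and *snrpb2* gave -0.15 and -0.04. The class median was 0.006, with 5 of 11 below 0, and it turned with single arrays, to 0.12 without *tdp1-/-* replicate 1 and -0.11 without *tdp1-/-* replicate 2.

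None of the genes of SF3a, SF3b and U2AF, which act at the branch point and 3′ splice site, was called. *sf3b1*, whose protein clamps the branch point helix of U2, measured 9.22, 9.25 and 9.19 in *tdp1WT* and 9.19, 9.36 and 9.30 in *tdp1-/-* replicates 1, 2 and 3, a log2 difference of 0.06 (95% confidence interval from -0.24 to 0.37). The 2 rows of *sf3b1* gave 0.06 and 0.10. In the same complex *sf3b3* gave 0.14, *sf3b2* -0.17 and *sf3a3* -0.05, and the class median was -0.002 over 8 genes. The value of *sf3b2* was -0.03 without *tdp1-/-* replicate 2 and -0.28 without *tdp1-/-* replicate 1. The genes of U2AF, in which the large subunit reads the polypyrimidine tract and the small one the AG of the splice site, were all slightly below 0, with *u2af1* at -0.05, *u2af2a* at -0.04 and *u2af2b* at -0.01. The row of *u2af2b* was among the steadiest, with log2 values of 8.42 ± 0.02 for *tdp1WT* and 8.40 ± 0.04 for *tdp1-/-* (SD, n = 3 arrays each) and a 95% confidence interval from -0.31 to 0.28.

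The *prpf* genes are named after yeast genes of pre-mRNA processing. *prpf8*, the core of the catalytic centre, measured 8.83, 8.84 and 8.38 in *tdp1WT* and 8.80, 8.66 and 8.38 in *tdp1-/-* replicates 1, 2 and 3. Replicate 3 was the lowest in both genotypes, and the genotypes differed by -0.07 (95% confidence interval from -0.52 to 0.38). The tri-snRNP genes *prpf3*, *prpf4*, *prpf6* and *prpf31* gave 0.07, 0.18, -0.06 and 0.11, the ubiquitin ligase gene *prpf19* -0.07 and *prpf38b* 0.18. None of these was called, with exact permutation p from 0.2 for *prpf4* up. A dimmer row of *prpf6* gave -0.32 and was called lower with the replicate block only. Over the 12 *prpf* genes the median log2 difference was -0.04, with 8 below 0 and a range from -0.10 to 0.18. Without *tdp1-/-* replicate 3 the median was 0.05.

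Arrays of different genotype and the same replicate number varied together in these genes. Over the 71 members, each array was expressed as its distance from the mean of its genotype, and Pearson's r between the arrays sharing a number was 0.441 (replicate 1), 0.549 (replicate 2) and 0.372 (replicate 3), against 0.203, 0.216 and 0.29 over all rows. These correlations are across genes, which are not independent replicates, and the 3 deviations of a gene within a genotype sum to 0. Every member was brighter than the median row, and no r was computed over only the genes as bright. The range of the 3 numbers, each averaged over both genotypes, was larger than the difference between genotypes in 59 of 71 members (83.1%), and in 86.1% of the 14072 genes as bright. Its median was 0.23 on the log2 scale over the members, beside a median size of 0.066 for the genotype difference. A range of 3 means of 2 arrays tends to exceed a difference of 2 means of 3 arrays even without any effect. These values therefore do not weigh replicate against genotype.

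The widest range belonged to *prpf38a*, a factor that joins the spliceosome before its activation. It measured 7.03, 7.34 and 6.53 in *tdp1WT* and 7.0, 7.20 and 6.51 in *tdp1-/-* replicates 1, 2 and 3. Replicate 2 was the highest and replicate 3 the lowest in both genotypes, with a range over the numbers of 0.75 on the log2 scale and a genotype difference of -0.07. For the Sm gene *snrpd3* the values were 6.98, 7.25 and 7.22 in *tdp1WT* and 6.60, 7.64 and 6.90 in *tdp1-/-* replicates 1, 2 and 3, and for *snrpd2* 7.21, 7.54 and 7.11 in *tdp1WT* and 7.10, 7.83 and 7.08 in *tdp1-/-* replicates 1, 2 and 3. Replicate 2 was the highest in both genes and both genotypes, while in *hnrnpul1*, *hnrnpul1l* and *hnrnpa3* it was the lowest. These genes were picked for their range after their values were seen. The same number held the highest array of both genotypes in 40 of 71 members (54.4% of the genes as bright). That number was 2 in 20 of the 71 members and in 2387 of the 14072 genes as bright. Whether experiments, embryos or arrays made these values vary was not tested.

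**Figure D4:**
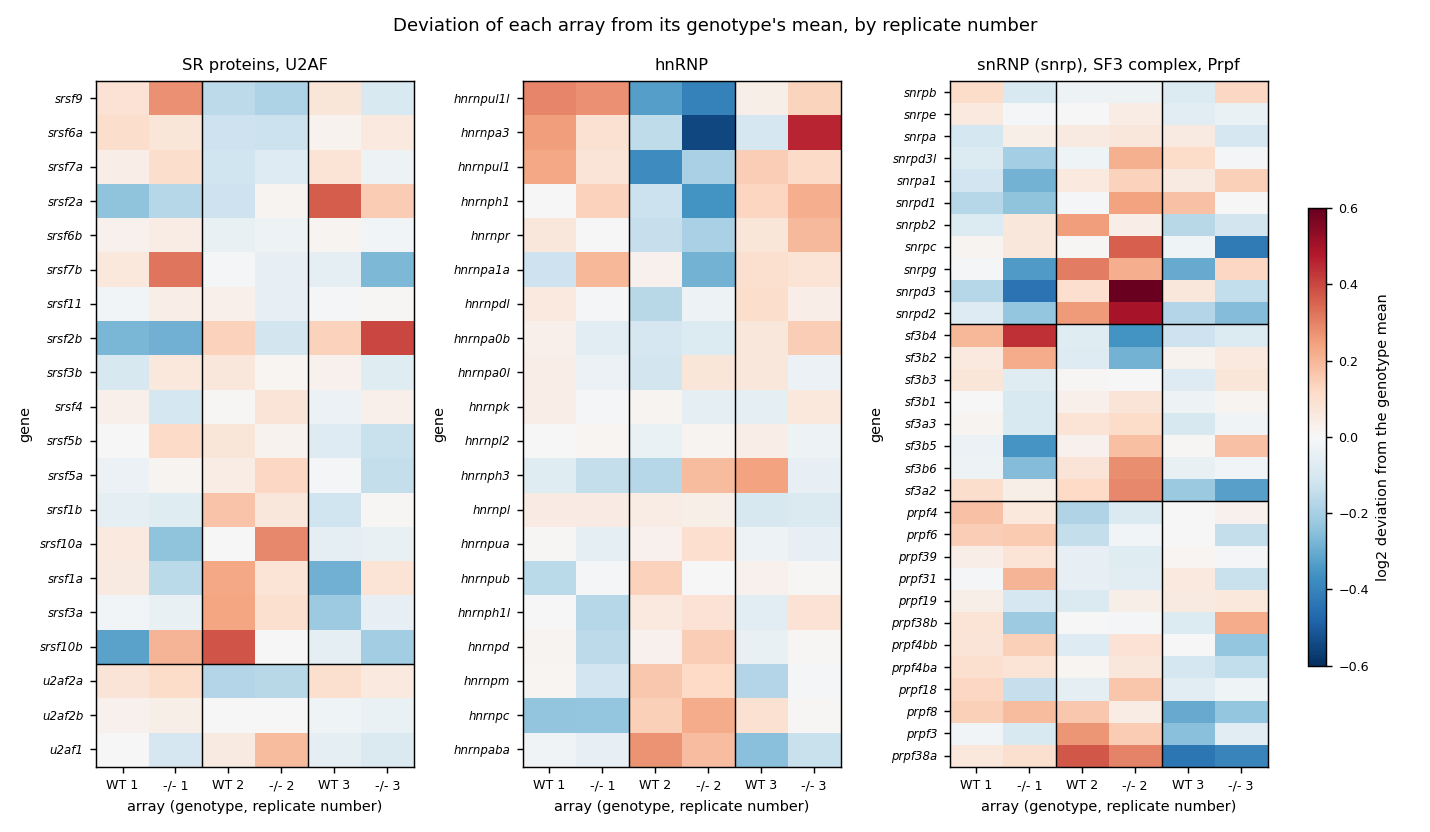
Log2 deviation of each array from the mean of its genotype (colour, from -0.6 to 0.6) for the 71 genes in rows, with the arrays of *tdp1WT* (WT) and *tdp1-/-* (-/-) placed side by side by replicate number. The columns of a number share colours in many rows, as in *prpf38a*, where replicate 2 is high and replicate 3 low in both genotypes.

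Read by direction, 10 members were lower and 9 higher in *tdp1-/-* in all 3 same-numbered pairs, where 16.8% of genes with 1 symbol were lower and 14.5% higher in this sense. Genotypes were fully separated in 4 members, *hnrnpdl* below and *srsf1b*, *srsf6b* and *snrpe* above, where 4.08% of genes with 1 symbol lay below and 3.64% above.

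Zebrafish keep many of these genes in 2 copies. Pairs were taken as members whose symbols differ in a final a or b after a digit, with *hnrnpu* and *prpf4b* added. The genes *snrpa* and *snrpb* were thus not counted as a pair. Of the 11 pairs, 6 had differences of 1 sign and 5 did not. In *srsf1* the copies gave 0.31 and 0.31, in *srsf10* 0.21 and 0.25 and in *hnrnpu* 0.07 and 0.14, while *srsf7a* and *srsf7b* gave 0.008 and -0.22 and *srsf6a* and *srsf6b* -0.03 and 0.10. The genes *prpf38a* and *prpf38b*, also counted here by their symbols, are not copies of each other but separate genes in mammals too.

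Of 190 further genes of splicing and related steps such as mRNA export, in 9 lists, 1 was called lower and 1 higher. Their median log2 difference was -0.02. Over all genes with 1 symbol, 1.04% were called lower and 0.852% higher. Genotypes were fully separated in 8 of the 190 below and in 5 above, where the shares over all genes with 1 symbol were 4.08% and 3.64%. The call below 0 was *snu13a*, whose protein binds U4 snRNA, with 6.13, 6.73 and 6.46 in *tdp1WT* and 5.97, 5.01 and 5.90 in *tdp1-/-* replicates 1, 2 and 3, a log2 difference of -0.81 (95% confidence interval from -1.48 to -0.14). The genotypes did not overlap (limma adjusted p = 1, two-sided exact permutation p = 0.1), and with the replicate block the call was lost (95% confidence interval from -1.63 to 0.01). Its paralog *snu13b* gave -0.07. In the same list of snRNP proteins *snrnp35*, of the minor spliceosome, gave 0.27 and was not called.

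At shares of 1.04% lower and 0.852% higher over all genes with 1 symbol, lists of this length hold few calls or none. No gene was called among the LSm genes (14 genes, median -0.05, with *lsm8* at -0.22 and *lsm3* at -0.25). That list was not limited to the spliceosomal LSm ring and also held genes such as *lsm12a* and *lsm14aa*. Nor was any called in the Prp19 complex and step factors (25 genes, median -0.008, *srrm2* 0.28, *snw1* -0.23). The splicing helicases held no call either (11 genes, median -0.05, *ddx39ab* -0.35, *ddx39aa* -0.16). The same held for the list of the branch point and 3′ splice site, which also held *ilf2* and *ilf3a* (18 genes, median 0.01, *rbm17* 0.25, *dnajc8* -0.22). It held too for SR-related proteins and SR kinases (19 genes, median 0.02). In that last list *clk4a*, a kinase of the Clk family that phosphorylates SR proteins, gave 0.28, and *scaf4a* 0.22. RNA-binding proteins like the hnRNPs had 23 of 32 below 0 (71.9%, beside 51.4% of all genes with 1 symbol) and a median of -0.05. The cold-inducible *cirbpa* gave -0.29 and *pcbp4* -0.38, neither of them called.

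Other genes on the same arrays did pass these thresholds, which use p before adjustment. The *tdp1* row was 1.32-fold lower in *tdp1-/-* embryos, a log2 difference of -0.40 (95% confidence interval from -0.79 to -0.01). Its limma p was 0.0452 before and 0.9999 after adjustment, and its two-sided exact permutation p was 0.1. Of 18 measured proliferation markers 3 were called lower and none higher (1.04% and 0.852% of all genes with 1 symbol). Over the 18, the median log2 difference was -0.25, with 17 below 0 and a range from -0.58 to 0.16. Of 20 measured tissue markers for muscle, neurons, glia, skin, blood, lens, heart, pancreas and photoreceptors, 3 were called lower and 1 higher beside the same shares. The lowest adjusted p from limma was 0.9999 in both marker lists. Over the 20 tissue markers, log2 differences ran from -0.70 to 0.51, and mean log2 values in a genotype from 4.79 to 11.89. The listed liver markers were not matched to a row and were not analysed here. The part of proliferation or tissue makeup in the values of the splicing genes was not tested.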

How the data were processed

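Total RNA of whole embryos was labelled with the Affymetrix WT plus protocol, and the arrays were normalized with RMA in the Transcriptome Analysis Console by the authors. Each deposited value is a log2 value of 1 row (transcript cluster) on 1 array. RMA comprises background correction and quantile normalization, and the paper does not state which arrays were normalized together. The genome build is not given in the sources used here. Gene symbols came from the platform annotation, with 1 symbol for 20806 rows, several for 855, which were left unused, and none for 53551. All 71 members matched the RefSeq table of assembly GRCz12tu by Entrez ID under the same symbol.

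Differences were fitted with limma 3.58.1 (lmFit, eBayes) in R 4.3.3 over all rows, with Benjamini-Hochberg adjustment, after the fit had been tested on simulated data. The median log2 value of an array was 4.66 to 4.87, and 3 arrays a genotype limit the precision. Replicate numbers come from the labels, and the paper describes 3 biologically independent experiments. Neither states that equal numbers share an experiment. The deviations of same-numbered arrays correlated over all rows with r of 0.203, 0.216 and 0.29, all over 0.1. Between arrays of different number r ran from -0.285 to 0.0832. The numbers were therefore taken to pair the arrays, a choice made on these same data. The fit with the replicate block is an alternative that keeps the pairs. The main fit and the exact permutation p ignore them. Swapping genotypes only within pairs could not give a p as small as 0.1. Genes were named if called with or without the block, as the 2 smallest p or the highest and lowest row of a class, or the 2 smallest p of a list. Others named were chosen after their values were seen. The members and lists were chosen with earlier results of these data known. Listed genes were matched by symbol or synonym, except *rrm2*, whose synonym is another gene. No sequences are shown. The alternatives were a further quantile normalization, median centring, a filter on dim rows, distinct rows, array weights, the mean of all rows of a gene, no fold threshold and leaving out each array.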

Additional observations from a re-analysis of the deposited data

How the results depend on the processing

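The count of members called was 0 in both directions under a further quantile normalization, median centring, the filter on dim rows, distinct rows, array weights, the mean of all rows and no fold threshold. With the replicate block it was 0 lower and 1 higher (*srsf1b*). Leaving out 1 array gave 0 to 1 lower (*srsf7b*, without *tdp1-/-* replicate 1) and 0 to 1 higher (*srsf1b*, without *tdp1WT* replicate 2). The replicate block changed no other member's call. The median log2 difference of the SR proteins, 0.034, was 0.0125 after median centring and 0.065 with array weights, and between 0.047 and 0.064 without 1 array. That of the *prpf* genes, -0.041, was between -0.069 and 0.0496 without 1 array. The medians of all members and of the other classes moved by less than the SD of the 3 same-numbered pairs but are near 0, and some turned sign. Without 1 array they ran from -0.0114 to 0.0161 (all members), -0.11 to 0.12 (*snrp* genes), -0.065 to 0.053 (SF3) and -0.047 to 0.015 (hnRNPs), and the median of all members was -0.012 after a further quantile normalization and -0.015 after median centring. Of 22 members named by the rule, 18 moved by more than 1.5 times or turned sign without 1 array, and 4 (*srsf1b*, *hnrnpdl*, *snrpe*, *sf3b3*) did not. Over all rows, 970 were called lower and 1718 higher, 1864 and 2966 with the replicate block, 600 and 740 among rows above the median row (fewer rows tested), and 1205 and 3799 without *tdp1-/-* replicate 1. Signs turned in uncalled genes near 0, in *srsf2a* with array weights (0.065) and otherwise without 1 array. The ranges without 1 array were -0.15 to 0.15 (*srsf2a*), -0.28 to 0.11 (*snrpc*), -0.27 to 0.23 (*hnrnpa3*), -0.22 to 0.045 (*prpf8*), -0.0595 to 0.20 (*prpf3*), -0.13 to 0.046 (*u2af2a*) and -0.032 to 0.0045 (*u2af2b*). The 3 arrays a genotype limit every interval, and probes of duplicated genes could not be checked for shared sequence.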

Other observations

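Tissue-specific regulators of splicing gave 1 gene called higher and none lower of 33 (0.852% and 1.04% of all genes with 1 symbol), with 21 below 0 and a median log2 difference of -0.05. The RNA-binding protein gene *rbpms* measured 4.86, 5.07 and 5.13 in *tdp1WT* and 5.56, 5.53 and 5.18 in *tdp1-/-* replicates 1, 2 and 3, 1.32-fold higher without overlap (limma adjusted p = 1, two-sided exact permutation p = 0.1), and the replicate block ended its call (95% confidence interval from -0.02 to 0.83). With the block *rbfox1l*, a muscle splicing regulator, was called lower at -0.36 (95% confidence interval from -0.67 to -0.04), and so was *esrp1*, an epithelial one, at -0.32 (from -0.64 to -0.01). Over all genes with 1 symbol the block called 2.49% lower. Of the skin markers *krt5* was called lower at -0.50, while *krt4* gave -0.14 and *cldnb* 0.09. The muscle markers *ckma*, *mylpfa*, *actc1b* and *myhz2* gave -0.08, -0.02, 0.01 and 0.175, none called. The part of tissue makeup was not tested.

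The exon junction complex and mRNA export factors, 18 genes measured, had no call with or without the block, a median log2 difference of 0.001 and a range from -0.17 to 0.16. The lowest was *thoc7* and the highest *alyref*, both of mRNA export. The whole 95% confidence interval lay inside a 1.5-fold change for 17 of the 18.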
